A study of Mus musculus with 6 samples.

Results

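This account covers 33 lysosomal genes: soluble hydrolases, their helper proteins, proteins of the lysosomal membrane, and the machinery that sorts hydrolases by their mannose 6-phosphate tag. The genes were chosen by symbol from a fixed list that leaves the cathepsins out, and 33 of 33 had a row among the 24047 rows of the count table. RNA sequencing was done on 3 libraries of monocytes from kidney (replicates 7, 8 and 22, named double_pos) and 3 from spleen and bone marrow (replicates 2, 24 and 26, named double). All 6 came from wild-type mice of the strain given as C5/Bl6, 8 to 10 weeks old, in which nephrotoxic nephritis, an antibody-driven injury of the glomerulus, had been induced, and which were killed on day 13. The labels speak of 10 mice in all, name no marker behind double or double_pos, and describe enrichment with a monocyte kit and sorting for the renal cells only. No library came from a mouse without nephritis, so tissue, handling and inflammation cannot be told apart. It is not stated whether a replicate is 1 mouse or a pool, so p-values measure the spread between these libraries, which may be technical.

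Lysosomes are acidic organelles in which hydrolases break down lipids, sugar chains and proteins brought in by endocytosis, phagocytosis and autophagy. Most soluble hydrolases receive a mannose 6-phosphate tag in the Golgi and are carried to the lysosome by receptors that bind it, while a proton pump keeps the interior acidic. Macrophages are rich in lysosomes because they digest what they engulf, and loss of single hydrolases in people causes storage diseases, in some of which macrophages swell with undigested material. Transcription factors of the MiT/TFE family, of which TFEB is the best known, bind a palindromic E-box in the promoters of many lysosome genes, the CLEAR motif.

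Libraries held 3492391 to 9727489 counts, the fewest in kidney replicate 22, which also correlated least with its own group (Pearson r of log2(CPM + 1) across genes of 0.872 and 0.875, against 0.947 between kidney replicates 7 and 8 and 0.985 to 0.993 among spleen and marrow libraries; genes do not count as independent replicates). The closest pair was spleen and marrow replicates 24 and 26, whose chi-square per degree of freedom was 2.96 against 23.7 to 65.3 for the other pairs within a group, and were kept as 2 libraries. The sum of 10 macrophage markers was 21728 to 35499 CPM (counts scaled to the same library size) in kidney and 2528 to 4460 in spleen and marrow. Apoe alone had 15146 to 28366 CPM in kidney and 1356 to 3115 in spleen and marrow. The sum of 9 classical monocyte markers was 8440 to 12479 against 19455 to 26591, so monocyte markers were present in both groups. Not all 9 followed their sum. Ccr2 was higher in every kidney library, at 764 to 1168 CPM against 623 to 705, and Fn1, Chil3 and Vcan overlapped. The sum of 9 non-classical monocyte markers went the other way from the classical sum, at 795 to 1007 CPM in kidney and 255 to 291 in spleen and marrow. Of these 9, Spn and Itgal overlapped between the groups. The 10 cell cycle genes summed to 59.6 to 252 against 1524 to 1702 CPM. The part of these differences in the results was not tested. Markers listed for other cells also had counts. The sum of 13 tubule markers reached 638, 290 and 1831 CPM in kidney replicates 7, 8 and 22 and at most 24.7 in the other group, with 6 of the 13 at 0 in every spleen and marrow library. That of 10 endothelial markers was 29.9, 938 and 22.02 CPM against at most 11.9, and that of 12 neutrophil and granule precursor markers 1105, 4400 and 43952 CPM against 25670 to 31208. S100a8 and S100a9 were the largest parts of this last sum in every library, at 16137 and 13363 CPM in kidney replicate 22. The part of other cells in the levels below was not tested. In bulk RNA, fewer cells of a type and less RNA per cell cannot be told apart.

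Of the 33 genes 5 rose in kidney and the other 28 were not called. The 5 were Igf2r, Galc, Npc1, Gusb and Grn, which sort hydrolases, split a myelin lipid, export cholesterol, cut glucuronic acid from sugar chains and encode progranulin. Igf2r had the largest difference, 8.00-fold, on few counts (19 to 54 a library in kidney and 4 to 8 in spleen and marrow). Galc and Npc1 rose 3.29-fold and 2.14-fold, and Gusb and Grn rose 1.53-fold and 1.52-fold. The abundant marker proteins of the organelle, Lamp1 and Lamp2, had differences of under 0.10 on the log2 scale. None fell: edgeR called 0 of 33 lower, with 0 lower at an unadjusted p under 0.05, where 12.5% of all genes tested were lower and 15.4% higher, and 0 by DESeq2 or limma-voom, which called 9.39% and 7.89% of all genes lower.

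All 33 genes passed the filter on low counts, and edgeR's quasi-likelihood test at an adjusted p under 0.05 called 5 of them higher, or 15.2%, where 7.83% of all 10626 genes tested were called higher and 5.9% lower. DESeq2 called 7 of the 33 higher, where it called 11% of all genes, and limma-voom 5, where it called 6.94%. Igf2r, 1 of the 5, passed the filter through its kidney libraries, so the count is a description. The median log2 fold change was 0.26 over the 33 and 0.05 over all genes tested, with 25 of the 33 above 0. The 3 kidney values all lay above the 3 spleen and marrow values for 12 genes and all below for 2, where 19.2% and 18.8% of all genes tested did so. The summed level of the 33 was 4348, 4363 and 4521 CPM in kidney replicates 7, 8 and 22 and 3626, 4052 and 4232 in spleen and marrow replicates 2, 24 and 26, so the sums did not overlap but lay within a narrow range. The 5 calls rest on all 3 spleen and marrow libraries: edgeR called 0 of 33 without any 1 of them (background 2.57%, 2.53% and 2.31% without replicate 2, 24 or 26), or with replicates 24 and 26 summed into 1 (2.65%). Without kidney replicate 7, 8 or 22 it called 2, 6 and 7 (background 8.15%, 8.52% and 14.3%).

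**Figure D1:**
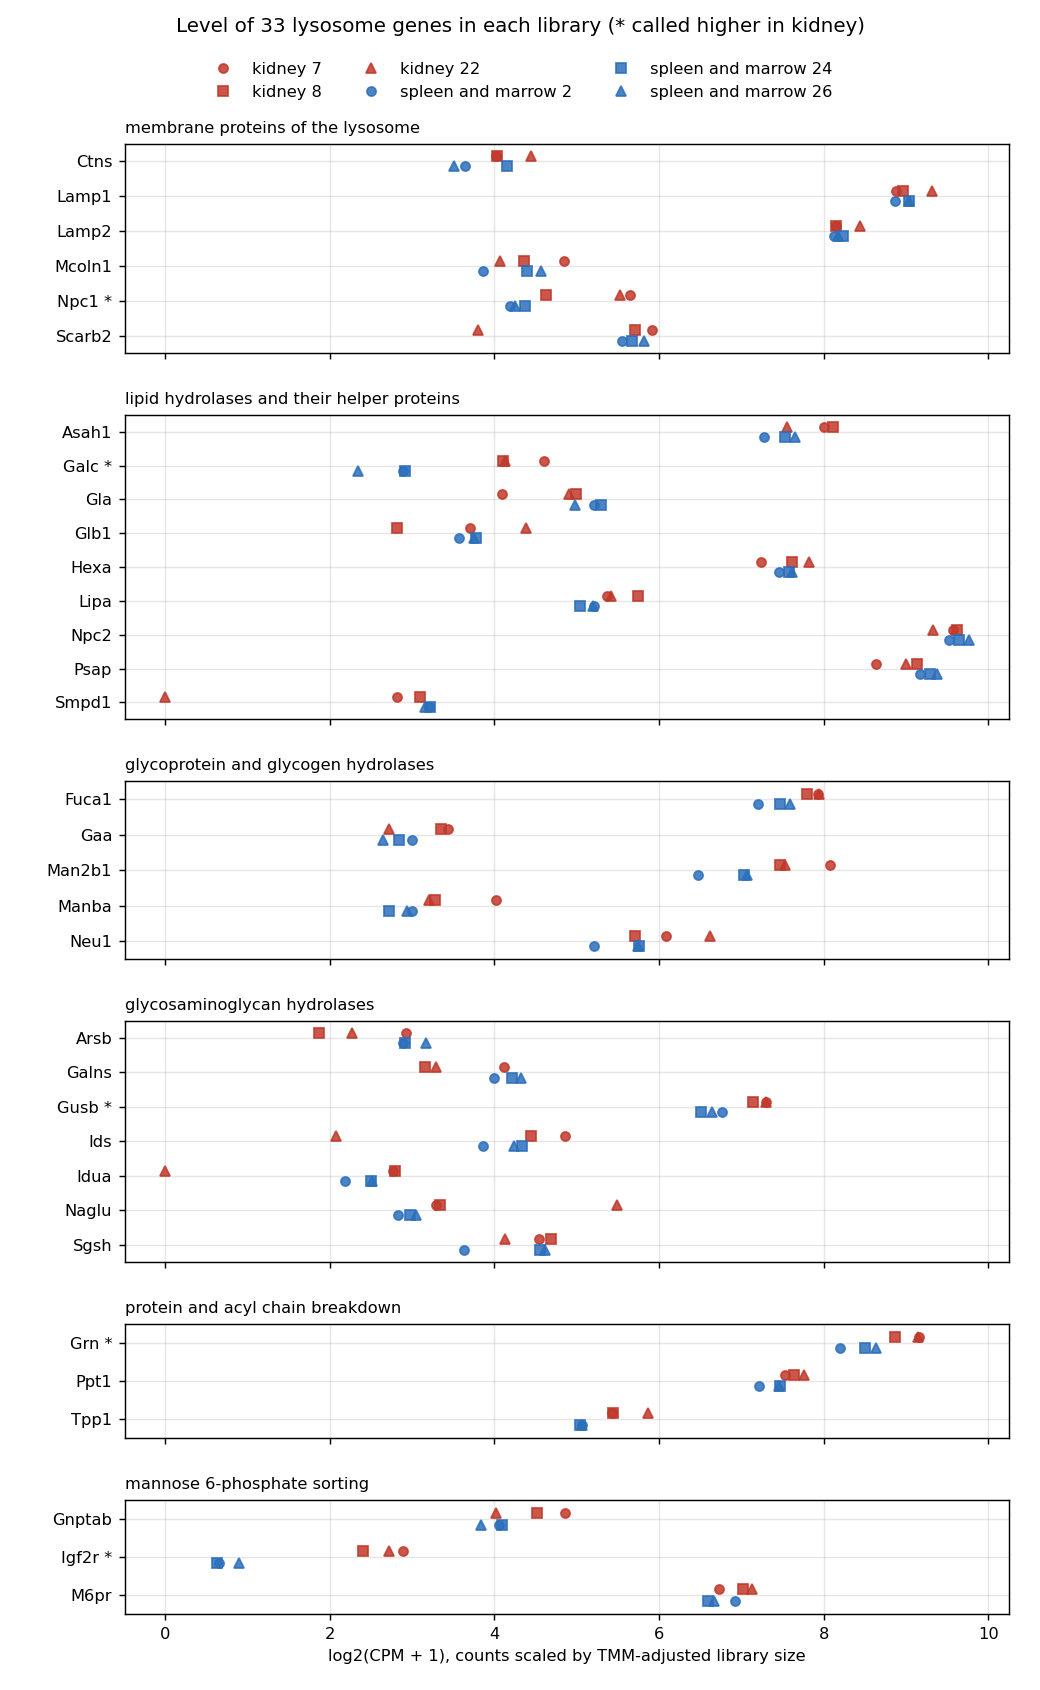
Level of each of the 33 lysosome genes in each of the 6 libraries, as log2(CPM + 1) on the horizontal axis, by role; red marks are kidney and blue marks spleen and marrow libraries, with 1 symbol per replicate, and an asterisk marks the 5 genes called higher. Red and blue marks overlap for most genes, and Smpd1 and Idua stand at 0 in kidney replicate 22.

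**Figure D2:**
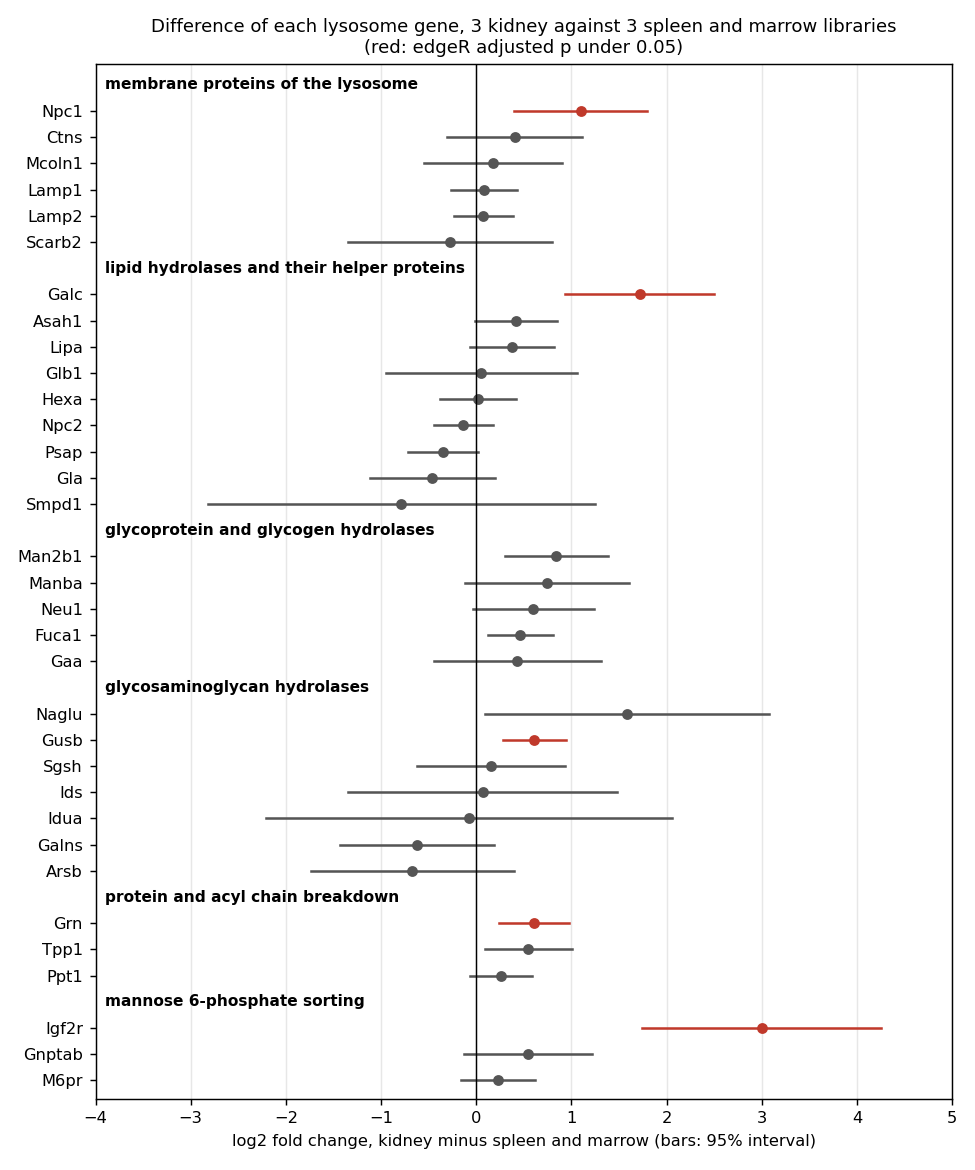
Log2 fold change of each gene, kidney minus spleen and marrow (horizontal axis), with its 95% interval from the edgeR fit on 3 against 3 libraries; red marks the 5 genes with an adjusted p under 0.05. The intervals of Lamp1, Lamp2, Hexa and Npc2 are narrow and hold 0, while those of Smpd1, Idua and Naglu are the widest.

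Promoter sequences show how unevenly the E-box is spread over these genes. RefSeq promoters (build GRCm38.p6, 250 bases before to 50 after each start site) were matched by symbol for 29 of the 33 genes, with 31 promoters. Asah1, Galns, M6pr and Npc1 had no match. The E-box CACGTG stood in 8 of the 31, or 25.8%, against 10.2% of the promoters of tested genes and 7.15% of all 32851 promoters. The longer form TCACGTGA, which contains it, stood in 3 promoters, or 9.68%. The 10-base CLEAR palindrome, which extends TCACGTGA by 1 base at each end, stood in 1, or 3.23%. The shares of these longer forms were 1.91% and 0.747% for tested genes and 0.974% and 0.326% for all. In the 105 promoters of the other lysosome genes set beside the 33 below, the 3 shares were similar, at 21.9%, 11.4% and 2.86%. All 3 motifs read the same on both strands, and base composition was not matched. The 4 promoters with more than 1 E-box are printed to show how the copies are spaced, in the gene with the largest rise and in 3 genes without a call; capitals mark CACGTG, and each is written 5′ to 3′ on the gene's strand.
Igf2r: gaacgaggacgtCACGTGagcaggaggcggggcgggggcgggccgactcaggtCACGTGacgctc
Lamp1: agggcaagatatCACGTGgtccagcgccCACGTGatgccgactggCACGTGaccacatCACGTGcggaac
Mcoln1: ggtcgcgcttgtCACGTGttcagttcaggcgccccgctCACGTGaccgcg
Gla: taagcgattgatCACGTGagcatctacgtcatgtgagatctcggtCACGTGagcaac
The Igf2r stretch (chr17:12769702-12769766, minus strand) runs from 60 bases before the start to 4 after it, and the Lamp1 stretch (chr8:13159088-13159157, plus strand) from 73 to 4 bases before the start. The Mcoln1 stretch (chr8:3500436-3500485, plus strand) lies 83 to 34 bases and the Gla stretch (chrX:134601188-134601244, minus strand) 239 to 183 bases before the start. Lamp1 held 4 copies of CACGTG and the others 2 each. Single copies stood in the promoters of Gaa, Glb1, Naglu and Sgsh.

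The genes with and without the E-box had overlapping ranges of difference. The 8 genes with CACGTG had a median log2 fold change of 0.17, from -0.46 for Gla to 2.999 for Igf2r. The 1 called higher was Igf2r, which passed the filter on low counts through its kidney libraries. The 21 without CACGTG had a median of 0.37, from -0.79 for Smpd1 to 1.72 for Galc, with 3 called. Of all genes tested, edgeR called 7.83% higher. These medians are descriptions, and the difference between them was not tested.

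Among the 6 membrane proteins only Npc1 was called higher by edgeR, or 16.7%, where 7.83% of all genes tested were. Lamp1, a heavily glycosylated protein that lines the lysosomal membrane, stood at 470, 498 and 636 CPM in the 3 kidney libraries (replicates 7, 8 and 22) and at 466, 523 and 525 CPM in spleen and marrow replicates 2, 24 and 26. Its groups overlapped, with kidney replicate 22 the highest, and the log2 fold change was 0.08 with a 95% interval from -0.27 to 0.43. Lamp2, its relative with a further role in chaperone-mediated autophagy, stood at 284, 284 and 348 CPM against 279, 301 and 289. The interval of its log2 fold change, -0.24 to 0.39, was similarly narrow. For both genes the sign of this small value turned without kidney replicate 22 (-0.08 and -0.05) and on the FPKM scale.

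Npc1, the membrane protein that moves cholesterol out of the lysosome, stood at 49.3, 23.6 and 44.9 CPM in the kidney libraries and at 17.2, 19.7 and 18.1 CPM in spleen and marrow. The groups did not overlap, and kidney replicate 8 lay close to spleen and marrow. Its log2 fold change was 1.10 ± 0.30 (SE), with an edgeR adjusted p of 0.0498, at the edge of the threshold. The edgeR adjusted p was 0.0113 without kidney replicate 8, 0.124 without replicate 7 and up to 0.191 with 1 spleen and marrow library left out. The call of Npc1 held in 4 of 14 alternatives. Rmc1 (listed under its older symbol 3110002H16Rik), whose exons overlap those of Npc1 on the other strand by up to 319 bases, had 294, 186 and 63 counts in kidney and 153, 162 and 199 in spleen and marrow, and these libraries do not mark strand. Its partner in cholesterol export, the soluble protein Npc2, was abundant and not called, at 758, 784 and 643 CPM against 734, 799 and 867, with an interval from -0.44 to 0.17.

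The remaining membrane proteins had lower levels and wider intervals. Ctns, the cystine exporter, had a log2 fold change of 0.40 (interval -0.30 to 1.11), and the cation channel gene Mcoln1 0.18 (-0.55 to 0.90). Scarb2, which encodes LIMP-2, the carrier of glucocerebrosidase, stood at 59.1, 51.4 and 12.9 CPM in kidney against 46.1, 50.2 and 55.4. Kidney replicate 22 alone was low, with 44 counts, and its deposited FPKM was low as well, at 2.61 against 11.3 to 15.1 in the other libraries. Without it the log2 fold change went from -0.28 to 0.11.

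Of 9 lipid hydrolases and helpers edgeR called 1 higher, or 11.1%, where it called 7.83% of all genes tested higher. Galc, the galactosylceramidase that splits a lipid abundant in myelin, stood at 23.3, 16.2 and 16.4 CPM in kidney and at 6.43, 6.57 and 4.07 CPM in spleen and marrow. Every kidney library was above every other one, and the highest value was 1.44-fold the lowest in kidney and 1.61-fold in spleen and marrow. The log2 fold change was 1.72 ± 0.34 (SE), with an edgeR adjusted p of 0.0151. It was the only one called among the 28 of the 33 genes tested with limma-trend on the deposited FPKM, with 1 or 0.1 added before taking logs, where 5.21% of all genes were called higher each time; Igf2r was not among the 28. Its adjusted p with 1 added was 0.0158 and its log2 fold change 0.89, and its edgeR adjusted p was 0.0755 to 0.101 with 1 spleen and marrow library left out. Exons of the antisense gene Gm47439 overlap those of Galc on the other strand by up to 325 bases, and these libraries do not mark strand.

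Hexa, the alpha subunit of beta-hexosaminidase, did not differ detectably, at 150, 194 and 225 CPM against 175, 191 and 195, with a log2 fold change of 0.02 and an interval from -0.38 to 0.42.

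Psap, the precursor of the saposins that present lipids to hydrolases, was lower in every kidney library, at 396, 562 and 511 CPM against 575, 628 and 667. Its log2 fold change of -0.35 ± 0.16 (SE) missed the edgeR threshold (adjusted p = 0.196). Lipa, the acid lipase for cholesteryl esters, lay on the other side without a call, at 40.2, 52.4 and 41.7 CPM against 36.2, 32.01 and 35.6. Asah1, acid ceramidase, stood at 255, 276 and 188 CPM against 154, 184 and 201, and its adjusted p of 0.186 became 0.037 without kidney replicate 22, the one kidney library within the spleen and marrow range. The galactosidase genes Gla and Glb1 had log2 fold changes of -0.46 (interval -1.12 to 0.19) and 0.05 (interval -0.95 to 1.06).

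Smpd1, acid sphingomyelinase, shows how kidney replicate 22 widens the intervals. It had 51, 60 and 0 counts in kidney and 72, 61 and 74 in spleen and marrow, or 6.04, 7.58 and 0 CPM against 8.27, 8.34 and 7.93. A count of 0 in that library allows up to 0.881 CPM (3 counts, counting error only). The deposited FPKM of the same gene there was 0.269, not 0, against 1.10 to 1.43 in the other libraries, so the 2 tables differ on it. The interval of its log2 fold change reached from -2.81 to 1.24.

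The 5 enzymes that take apart glycoproteins and glycogen all had log2 fold changes above 0, from 0.43 to 0.84, and edgeR called 0 of them. At an unadjusted p under 0.05 edgeR had 2 higher, while DESeq2 called 2 and limma-voom 1. Over all genes these shares were 15.4%, 11% and 6.94%, and 5605 of 10626 genes tested had a log2 fold change above 0. Man2b1, the acid alpha-mannosidase, stood at 269, 176 and 184 CPM in kidney against 87.6, 130 and 133 in spleen and marrow. The groups did not overlap, with kidney replicate 7 highest and spleen and marrow replicate 2 lowest. Its log2 fold change was 0.84 ± 0.23 (SE) and its edgeR adjusted p was 0.05003, just above the threshold; 7 of 14 alternatives called it, with adjusted p from 0.00616 with DESeq2 to 0.203 on the FPKM scale.

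Fuca1, which removes fucose, stood at 244, 222 and 245 CPM against 146, 177 and 193, with all kidney libraries above the others. Its log2 fold change was 0.46 ± 0.15 (SE), with an edgeR adjusted p of 0.0793; DESeq2 called it with an adjusted p of 0.0336. Manba, the beta-mannosidase, stood at 15.2, 8.72 and 8.22 CPM against 7.01, 5.61 and 6.65, and the sialidase gene Neu1 at 67.2, 51.2 and 97.5 against 36.2, 52.9 and 52.6, where 1 kidney library overlapped. Gaa, which releases glucose from glycogen, stood at 9.84, 9.22 and 5.58 CPM against 7.01, 6.16 and 5.25 and had an interval from -0.44 to 1.31. Summed, the 5 enzymes reached 605, 467 and 540 CPM in kidney against 284, 372 and 390.

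Of 7 enzymes that degrade glycosaminoglycans edgeR called 1 higher, or 14.3%, where it called 7.83% of all genes tested higher. Gusb, beta-glucuronidase, stood at 156, 141 and 157 CPM in the 3 kidney libraries and at 108, 90.2 and 99.3 CPM in spleen and marrow. Both groups were tight and did not overlap, and the log2 fold change was 0.61 ± 0.14 (SE), with an edgeR adjusted p of 0.0281. The call held in 6 of 14 alternatives. Among the losses were edgeR without kidney replicate 7 (adjusted p = 0.0543) and with 1 spleen and marrow library left out (up to 0.158).

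Naglu, which trims heparan sulfate, had a log2 fold change of 1.58 that missed the edgeR threshold (adjusted p = 0.157). It stood at 8.77, 9.10 and 44.0 CPM in kidney against 6.09, 6.84 and 7.29, so that the size of the difference came from kidney replicate 22, and without it the log2 fold change was 0.39. That library also had the highest sums of tubule markers and of neutrophil and granule precursor markers, and their part was not tested. The sulfatase genes Arsb and Galns had values below 0, -0.67 (interval -1.74 to 0.40) and -0.62 (-1.43 to 0.19), and Sgsh stood at 0.16 (-0.62 to 0.94).

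Ids and Idua, which remove the sulfate and then the sugar of iduronic acid, were low in kidney replicate 22 like Smpd1. Ids stood at 28.1, 20.7 and 3.23 CPM in kidney against 13.6, 19.2 and 17.9 CPM. Idua had 49, 47 and 0 counts against 31, 34 and 44, with a deposited FPKM of 0.0907 in the library at 0. Their log2 fold changes, 0.07 and -0.08, had intervals of -1.34 to 1.48 and -2.21 to 2.05. Exons of Dgkq and Slc26a1 overlap those of Idua on the other strand. Other members also have exon overlaps on the other strand, which these libraries do not mark. The overlaps reach 1719 bases for Arsb (Gm26527), 839 for Sgsh (Card14), 255 for Hexa (Tmem202) and 177 for Lamp1 (Grtp1). Gnptab and Ppt1 have smaller ones.

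The 3 genes grouped under breakdown of proteins and acyl chains were higher in every kidney library than in any spleen and marrow library. The 1 that passed the edgeR test was Grn, and the enzyme genes Tpp1 and Ppt1 did not pass. Of all genes tested, 19.2% lay higher in every kidney library in this way, and edgeR called 7.83% higher. Grn, which encodes progranulin, a secreted protein that is cut into granulins in the lysosome, stood at 571, 467 and 565 CPM in kidney against 294, 361 and 399. Its log2 fold change was 0.60 ± 0.16 (SE), with an edgeR adjusted p of 0.0425. The edgeR adjusted p was 0.0502 without kidney replicate 22, 0.0861 without replicate 7 and up to 0.147 with 1 spleen and marrow library left out. The call of Grn held in 5 of 14 alternatives. Exons of Fam171a2 overlap those of Grn on the other strand by up to 68 bases. Fam171a2 had 0, 7 and 9 counts in kidney replicates 7, 8 and 22 and at most 1 in a spleen and marrow library. Tpp1, a peptidase that cuts tripeptides from protein ends, stood at 42.1, 42.6 and 57.3 CPM against 32.4, 32.01 and 32.5 (log2 fold change 0.55, edgeR adjusted p = 0.113). Ppt1, which removes palmitate from proteins, stood at 184, 199 and 215 CPM against 148, 177 and 175 (0.26, edgeR adjusted p = 0.280).

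Of the 3 genes of mannose 6-phosphate sorting, Igf2r rose, where edgeR called 7.83% of all genes tested higher. Igf2r encodes the large cation-independent receptor, which carries tagged hydrolases and also binds the growth factor IGF2. It had 54, 34 and 19 counts in kidney replicates 7, 8 and 22 and 5, 4 and 8 in spleen and marrow replicates 2, 24 and 26, or 6.40, 4.30 and 5.58 CPM against 0.574, 0.547 and 0.857. The kidney values, the highest 1.49-fold the lowest, lay far from the others, but all levels were low, and the gene passed the filter through the kidney libraries. The log2 fold change was 2.999 ± 0.54 (SE, interval 1.74 to 4.26), with an edgeR adjusted p of 0.0111, and of 0.0797 to 0.0942 with 1 spleen and marrow library left out. Airn, the antisense transcript of the imprinted Igf2r locus, had 3 and 10 counts in kidney replicates 7 and 8 and 0 in the other libraries. Igf2r is the gene whose promoter held the 10-base CLEAR palindrome.

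M6pr, the small cation-dependent receptor, was far more abundant and had no call, at 105, 129 and 139 CPM against 120, 96.0 and 101 (log2 fold change 0.23, interval -0.16 to 0.62). Gnptab, which encodes the catalytic subunits of the enzyme that starts the mannose 6-phosphate tag, stood at 28.1, 21.99 and 15.3 CPM against 15.6, 16.1 and 13.3. Its adjusted p was 0.269 in edgeR and 0.040 without kidney replicate 22, its lowest kidney library. Whether Igf2r and M6pr changed by different amounts was not tested.

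Levels between genes are compared on the deposited FPKM scale, which divides by transcript length. In spleen and marrow the mean FPKM was highest for Psap (130), Npc2 (105), Lamp1 (102), Grn (72.7) and Lamp2 (65.4), and in kidney for Psap (101), Grn (101), Lamp1 (98.3), Npc2 (90.2) and Lamp2 (63.0). The same 5 genes led in both groups, and in kidney the ranges of Psap, Grn, Lamp1 and Npc2 over the 3 libraries overlapped. At the other end stood Igf2r, at 0.161 to 0.279 FPKM in kidney and 0.0219 to 0.0407 in spleen and marrow, so that M6pr, at 22.8 to 30.1 and 21.9 to 25.9 FPKM, was the main receptor transcript of the pair in every library. Arsb, Idua and Gaa were also under 1 FPKM on average in both groups.

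The genes without a call cannot be read as unchanged. Of the 28, 12 had a 95% interval between -1 and 1 on the log2 scale, that is, within 2-fold in either direction, and 16 had an interval that reached further. Spread within kidney was the wider one. The highest kidney library was more than 2-fold above the lowest for 7 genes, and for 2 others 1 kidney library had no count, whereas in spleen and marrow this held for 1 gene, Sgsh. No kidney library was at one end throughout: replicate 22 was the highest of the 3 for 12 genes and the lowest for 11, replicate 7 for 13 and 11, and replicate 8 for 8 and 11.

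**Figure D3:**
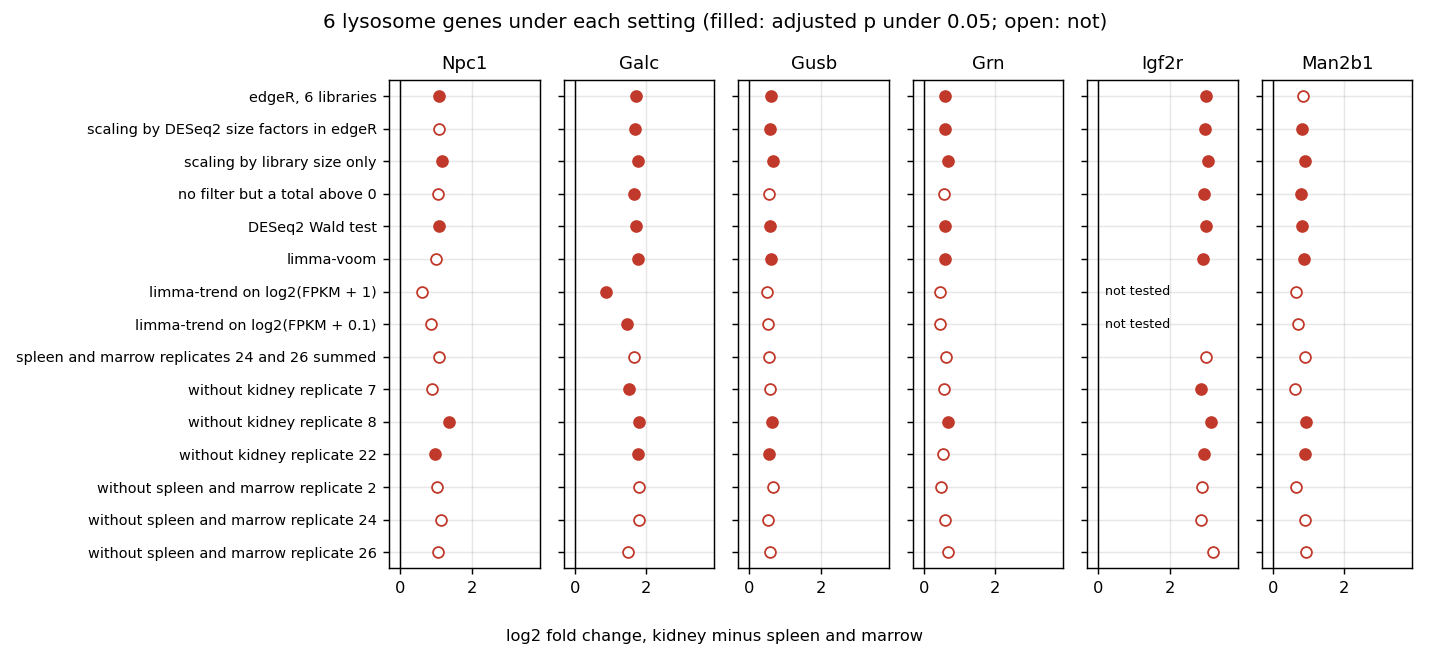
Log2 fold change (horizontal axis) of the 5 called genes and Man2b1 with edgeR on 6 libraries (top) and under each of 14 alternatives; filled circles have an adjusted p under 0.05 and open circles do not. All plotted positions lie above 0, with Galc running from 0.89 to 1.81 and Npc1 from 0.62 to 1.35 over the alternatives, and Igf2r has no value in the 2 on the FPKM scale. The circles of Npc1, Galc, Gusb, Grn and Igf2r are all open when a spleen and marrow library is left out or 2 are summed.

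Other lysosome genes were set beside the 33. Of 118 listed, 117 had a row and 106 were tested with edgeR, of which 13 rose and 4 fell, or 12.3% and 3.77%, against the background of 7.83% and 5.9% given above. Their median log2 fold change was 0.23. Of the other lysosomal membrane proteins 5 of 24 were higher and 0 lower (0 lower at an unadjusted p under 0.05, and 0 by DESeq2 or limma-voom), with a median of 0.68. Slc11a1, the metal transporter NRAMP1 of phagosomes, averaged 128 ± 15.1 CPM in kidney and 31.9 ± 5.43 in the other group (SD, n = 3 for both), and its log2 fold change was 2.01 ± 0.19 (SE), with an edgeR adjusted p of 0.00109. The peptide and histidine transporter gene Slc15a3 had a log2 fold change of 2.00 ± 0.30. For Cd63, a tetraspanin gene, it was 1.92 ± 0.39, with 265, 329 and 763 CPM in kidney replicates 7, 8 and 22 against 92.7, 128 and 138. The calls of Slc11a1 and Slc15a3 held in all 14 alternatives, and that of Cd63 in 10.

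Of 26 other hydrolases and activators 5 rose and 1 fell, or 19.2% and 3.85%, where edgeR called 7.83% and 5.9% of all genes tested. The acid phosphatase genes Acp2 and Acp5 rose by log2 folds of 2.39 ± 0.23 and 1.96 ± 0.21 (SE, edgeR adjusted p of 0.00109 and 0.00152). Mean levels were 42.2 ± 4.72 CPM in kidney against 8.04 ± 0.982 for Acp2, and 80.0 ± 11.8 against 20.5 ± 3.50 for Acp5 (SD, n = 3 libraries a group). Both were called in all 14 alternatives. Lyz2, the lysozyme of myeloid cells, was the one that fell, by 0.60 on the log2 scale (edgeR adjusted p = 0.0342), from 36591 to 53871 CPM in spleen and marrow to 29441 to 32061 in kidney; it was called in 5 of 14 alternatives. It has a near-identical copy, Lyz1, and its FPKM is listed at 0 in spleen and marrow replicate 26, where it had 502608 counts.

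Of the proton pump, edgeR called 1 of 15 tested subunits higher, or 6.67%, and 0 lower, where it called 7.83% and 5.9% of all genes tested. At an unadjusted p under 0.05, 0 were lower, and 0 by DESeq2 or limma-voom. The median log2 fold change was -0.10. Atp6v0a1, a membrane subunit, was the one that rose, to 30.02 ± 3.87 CPM in kidney from 11.5 ± 0.405 elsewhere (SD, n = 3 for both; edgeR adjusted p = 0.00823), and its call held in 10 of 14 alternatives. Among 17 regulators, Mitf, a transcription factor of the MiT/TFE family, stood at 11.97, 14.2 and 34.7 CPM in kidney against 5.86, 4.65 and 4.502 and rose by a log2 fold of 2.00 ± 0.47 (SE, edgeR adjusted p = 0.0283). Mitf was called in 8 of the 12 alternatives that tested it, and without kidney replicate 22 its log2 fold change was 1.36. Lamtor4 and Lamtor2, parts of the scaffold that holds mTORC1 signalling at the lysosome, fell by 0.50 and 0.44 on the log2 scale (edgeR adjusted p of 0.0386 and 0.0477), and their calls held in 6 and 3 of 14 alternatives. For Tfeb itself the log2 fold change was -0.03 ± 0.23 (SE), with an edgeR adjusted p of 0.957; it was chosen after its value was seen. Of 24 genes of delivery and fusion, Sort1, a sorting receptor that does not need the tag, fell by 1.43 on the log2 scale (edgeR adjusted p = 0.0101), and Ap1b1, a subunit of a clathrin adaptor, rose by a log2 fold of 0.997 ± 0.26 (SE, edgeR adjusted p = 0.0429). The call of Sort1 held in 10 of 14 alternatives and that of Ap1b1 in 5.

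**Figure D4:**
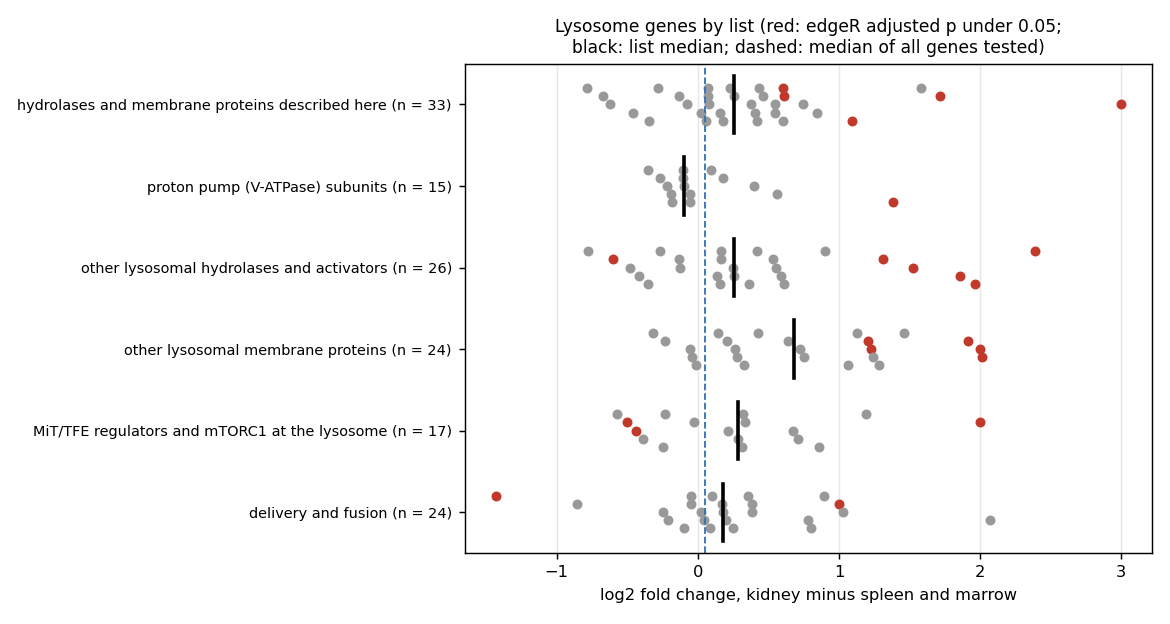
Log2 fold change, kidney minus spleen and marrow (horizontal axis), of the 33 genes and of the tested genes of 5 other lysosome lists; red points have an edgeR adjusted p under 0.05, black bars are list medians, the dashed line is the median of all genes tested, and vertical scatter within a list has no meaning. The list of other membrane proteins has the median farthest to the right, at 0.68, and the proton pump list lies around 0.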

How the data were processed

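The 6 libraries were compared as 3 against 3. RNA (2 ng a library) was copied into full-length cDNA by SMART-Seq v4 chemistry and sheared to a mean of 150 bp, per the labels' protocols; this chemistry marks no strand. The authors deposited raw counts per gene symbol and, separately, FPKM values, which divide by depth and by transcript length. STAR 2.5, Cufflinks 2.2.1, bcl2fastq 2.18 and the build mm9 are named, without a role, per the submitters' processing notes; what counted the reads, and over which gene models, is not given in the sources used here. Counts were filtered with filterByExpr, scaled with TMM and tested with glmQLFit and glmQLFTest (edgeR 4.0.16, R 4.3.3, two-sided, Benjamini-Hochberg over 10626 genes, calls at an adjusted p under 0.05). Standard errors are the log2 fold change divided by the square root of F, and intervals use the fit's degrees of freedom. CPM uses TMM-adjusted library sizes. The scripts were tested on simulated data. The alternatives tried were library size scaling, no filter, DESeq2 1.42.0, its size factors in edgeR, limma-voom and limma-trend on FPKM of at least 1 in 3 libraries (limma 3.58.1), replicates 24 and 26 of spleen and marrow added together, and leaving out each library. Named were all 33 genes and, per other lysosome list, up to 3 calls per direction by smallest p. One gene that this rule names is not reported here. Members, lists and tests were chosen with earlier results of these data known. Overlapping exons come from GENCODE M21 (GRCm38), used for names and neighbours only. Figures used matplotlib 3.10.9.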

Additional observations from a re-analysis of the deposited data

How the results depend on the processing

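The number of the 33 genes called higher, 5 with edgeR on 6 libraries, was 3 without a filter on low counts, 1 with limma-trend on log2(FPKM + 1) and 1 on log2(FPKM + 0.1), 0 with spleen and marrow replicates 24 and 26 summed, and 0 to 7 on leaving out 1 library; the number lower was 0 under each of the 14 alternatives. For other lysosome genes, 13 higher and 4 lower became 6 and 0 with the sum, 5 to 23 and 0 to 4 on leaving out 1 library, and 1 lower with library size scaling and on both FPKM scales. Over all genes, 832 higher and 627 lower became 299 and 201 with the sum, 407 higher on both FPKM scales, 995 lower with DESeq2, and 260 to 1569 and 179 to 1215 on leaving out 1 library. Of all calls 57.0% were higher with edgeR, 46.8% with limma-voom and 38.4% and 41.5% on the FPKM scales. The cause was not tested. Higher calls over all genes fell to 289, 286 and 260 without spleen and marrow replicate 2, 24 or 26. They rose to 891, 929 and 1569 without kidney replicate 7, 8 or 22, although each of these fits also had fewer libraries. On the FPKM scales the median of all genes shifted by -0.14 and -0.17 on the log2 scale, and 5 of the 33 genes were below their filter.

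Every change of sign among the 33 genes was in a gene without a call in either fit. Outside the 33, the only named lysosome gene whose sign changed was Lyz2, which read 4.18 and 5.28 on the FPKM scales because 1 library is listed at 0 there. On log2(FPKM + 1) and log2(FPKM + 0.1), the log2 fold change was -0.0475 and -0.0479 for Lamp1, -0.0600 and -0.0609 for Lamp2, -0.0620 and -0.0919 for Mcoln1, -0.14 and -0.14 for Hexa and -0.0509 and -0.37 for Ids, and on the latter -0.0174 for Glb1 and -0.0044 for Sgsh. With limma-voom it was -0.23 for Glb1, -0.0279 for Hexa and -0.0342 for Ids, without a filter -0.0227 for Hexa, and with library size scaling 0.0041 for Idua. Leaving out 1 library gave ranges of -0.0817 to 0.18 for Lamp1, -0.0508 to 0.13 for Lamp2, -0.0650 to 0.32 for Mcoln1, -0.62 to 0.11 for Scarb2, -0.43 to 0.39 for Glb1, -0.14 to 0.18 for Hexa, -0.44 to 0.51 for Ids, -0.48 to 0.43 for Idua and -0.13 to 0.31 for Sgsh. The 5 called genes were above 0 under every alternative that gave a value. Igf2r had few counts in every library, while Smpd1 and Idua had 0 counts in kidney replicate 22 alone. Without that library the edgeR SE of Smpd1 went from 0.877 to 0.259 and that of Idua from 0.922 to 0.301. The part of depth was not tested. No paired analysis was possible because the groups share no replicate number.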
